A study of Mus musculus with 16 samples.

Results

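A set of 10 imprinted genes whose promoters carry methylation on the maternal chromosome were examined in whole genome bisulphite sequencing (WGBS) of mouse B and T cells: Peg3, Snrpn, Kcnq1ot1, Mest, Grb10, Peg10, Plagl1, Nnat, Impact and Airn. They were 10 of 55413 genes annotated on the chromosomes in GENCODE vM21 (mm10), and were taken by name. For every gene, calls were added up within 1 kb of each annotated transcript start (the promoter) and in tiles of 500 bp within 5 kb of a start. A tile with 3 or more CpGs was measured when 6 or more libraries of each cell type had at least 20 calls in it. The tiles of a gene with a pooled level between 30% and 70% over all 16 libraries formed its region. All 10 genes had a region, among 24999 distinct regions genome-wide, and the regions together held 80 of the 295 measured tiles near these genes (27.1%, beside 8.91% of all measured tiles).

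The 16 libraries came from spleens of C57BL/6J mice aged 6 to 8 weeks: 8 from resting B cells (CD43-) and 8 from naive T cells (CD4+ CD62L+), with 4 libraries per sex and cell type, isolated with magnetic beads from pooled animals. Of those 4, 2 were bisulphite (BS) libraries, which read 5-methylcytosine and 5-hydroxymethylcytosine together, and 2 were oxidative bisulphite (oxBS) libraries, which read 5-methylcytosine alone. Libraries held 123346598 to 170653234 calls in B cells and 154441442 to 169656013 in T cells, or 5.64 to 7.80 calls per CpG. The sources name no animal for a library, so p-values measure the spread between libraries, which may be technical, and a BS and an oxBS library may share DNA. The promoters of lineage markers followed the labels. The B cell marker promoters of Cd79a, Cd79b, Pax5, Ms4a1 and Blk were less methylated in B cells and 7 of 8 T cell marker promoters were less methylated in T cells, with Cd28 not called. Among 9 markers of other cells, the promoters of Cd8a and Cd8b1 were less methylated in T cells and that of Lyz2 in B cells. The promoters of the other 6 were not called. Among them, Itgam had the opposite order to Lyz2, at 74.6% in B cells and 65.3% in T cells.

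Genomic imprinting leaves 1 parental copy of a gene active and silences the other. At maternally methylated genes the mark is laid down at CpG islands in the oocyte, is spared when the embryo loses most of its methylation, and is kept in somatic cells by DNMT1. Protection in the embryo involves the zinc finger protein ZFP57, which binds the methylated hexamer TGCCGC and recruits TRIM28. A methylated maternal copy and an unmethylated paternal copy give a level near the middle of the scale in reads that are not split by allele. The deposited calls carry no parental information, so all levels are sums over both copies.

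Each gene had a longest run of adjacent region tiles, from 1500 bp at Snrpn and Grb10 to 5500 bp at Mest, and every run contained or touched an annotated start of its gene. The hexamer TGCCGC was searched on both strands of these runs. It occurred 68 times, between 3 times (Kcnq1ot1 and Peg10) and 13 times (Mest) per run, and at least once in 28 of the 58 run tiles (48.3%). In comparison, 6.74% of all tiles at 30 to 70% and 7.54% of all measured tiles held it. Among tiles with at least 20 CpGs, 20 of 27 run tiles held it (74.1%), beside 29.5% of all such tiles at 30 to 70% and 34.0% of all such measured tiles. The 22 region tiles outside the longest runs held it in 2 cases (9.09%). A match is a description of the sequence and says nothing of binding in these cells.

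Stretches of 120 bases are given for the runs of 5 of the genes, as examples of how the hexamer lies in them. Each held the most hexamers of its run among stretches that overlap no annotated untranslated region. They are on GRCm38.p6 in the direction of the gene, with hexamers of either orientation in capitals (GCGGCA is the hexamer on the other strand).
Peg3, chr7:6730062-6730181, minus strand: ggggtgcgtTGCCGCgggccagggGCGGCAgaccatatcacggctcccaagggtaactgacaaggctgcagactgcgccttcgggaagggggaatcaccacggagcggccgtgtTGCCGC
Kcnq1ot1, chr7:143295648-143295767, minus strand: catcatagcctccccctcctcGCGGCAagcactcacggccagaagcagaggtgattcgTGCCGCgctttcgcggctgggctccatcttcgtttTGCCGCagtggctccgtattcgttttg
Nnat, chr2:157560309-157560428, plus strand: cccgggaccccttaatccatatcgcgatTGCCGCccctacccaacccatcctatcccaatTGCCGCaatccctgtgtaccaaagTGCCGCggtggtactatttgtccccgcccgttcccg
Snrpn, chr7:60004413-60004532, minus strand: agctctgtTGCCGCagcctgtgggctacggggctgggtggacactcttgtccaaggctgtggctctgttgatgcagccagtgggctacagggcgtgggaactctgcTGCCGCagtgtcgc
Airn, chr17:12741719-12741838, plus strand: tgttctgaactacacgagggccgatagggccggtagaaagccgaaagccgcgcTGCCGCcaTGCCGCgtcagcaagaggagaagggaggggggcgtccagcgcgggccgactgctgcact
The 11 CpGs of the Peg3 stretch were methylated in 40.9% of 1574 pooled calls and the 12 CpGs of the Kcnq1ot1 stretch in 43.1% of 1589. The Nnat stretch (10 CpGs) reached 42.3% of 1231 calls, the Snrpn stretch (5 CpGs) 46.2% of 663, and the Airn stretch (13 CpGs) 41.6% of 700. Libraries differed widely at such short stretches, with means of 39.5% to 48.1% and SDs of 8.81 to 19.5 points in B cells and means of 36.7% to 45.6% and SDs of 14.6 to 26.2 points in T cells. Over whole runs, CpGs inside hexamers were less methylated than the other CpGs of the run in 8 of 10 genes, with the widest gap at Airn (42.5% and 48.7%) and the opposite order at Snrpn (47.2% and 47.0%) and Mest (48.1% and 46.3%). Of the 68 hexamers, 53 lay in run tiles with at least 20 CpGs, which had a lower median level than the other run tiles. Whether the order holds apart from CpG density was not tested.

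The paternally expressed coding genes with a single run came first. Peg3 encodes a zinc finger transcription factor, and its region was a run of 10 tiles at chr7:6727501-6732500 with 154 CpGs, over exons of Peg3 and of Usp29 on the other strand. Its level in the 8 B cell libraries ran from 42.5% through a median of 48.5% to 51.9%, and in the 8 T cell libraries from 45.7% through 52.5% to 54.5%. The ranges overlapped over most of their length. Mest encodes a hydrolase-like protein of the endoplasmic reticulum and had the longest run, 11 tiles with 191 CpGs at chr6:30734501-30740000. B cell libraries lay between 39.9% and 52.3% (median 46.5%) and T cell libraries between 38.0% and 50.3% (median 48.0%). Peg10, derived from a retrotransposon, shared its run of 7 tiles and 194 CpGs at chr6:4746001-4749500 with exons of Sgce on the other strand. Its B cell libraries ran from 37.4% to 53.0% (median 45.6%) and its T cell libraries from 39.2% to 50.3% (median 43.7%). Nnat, a small membrane protein encoded inside an intron of Blcap, had 5 tiles with 123 CpGs at chr2:157559501-157562000. Its pooled level was the highest of the 10, with B cell libraries between 47.5% and 65.2% (median 57.6%) and T cell libraries between 42.6% and 65.6% (median 53.0%).

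At Snrpn, which encodes a component of the spliceosome, the run of 3 tiles and 51 CpGs lay at chr7:60004001-60005500 over the shared start of Snrpn and Snurf. With 2 further tiles near an upstream start, the Snrpn region held the fewest calls, 261 to 577 per library. B cell libraries ran from 42.5% to 57.5% (median 51.8%) and T cell libraries from 37.4% to 56.4% (median 48.2%). Plagl1 encodes a zinc finger protein that restrains the cell cycle, and its run of 4 tiles and 105 CpGs lay at chr10:13090501-13092500 over 8 of its 11 starts. The whole Plagl1 region was at 47.6% to 60.9% in B cells (median 57.7%) and at 41.1% to 55.1% in T cells (median 49.8%), so the upper libraries were from B cells and the lowest from T cells, with an overlap between. Impact, an inhibitor of the kinase GCN2, had a run of 6 tiles and 147 CpGs at chr18:12972001-12975000. Its whole region of 9 tiles had the lowest SD of the 10, from 40.8% through a median of 44.6% to 47.7% in B cell libraries and from 39.3% through 42.0% to 47.0% in T cell libraries. Grb10, an adaptor that damps insulin and growth factor signalling, had the most CpG-dense run, with 152 CpGs in 1500 bp at chr11:12025501-12027000 and 10.1 CpGs per 100 bp. The Grb10 region with its other tiles ran from 43.8% to 57.4% in B cells (median 51.5%) and from 38.0% to 51.8% in T cells (median 49.5%).

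The promoters of 2 long non-coding RNAs showed the same pattern. Kcnq1ot1 starts in an intron of Kcnq1 and is antisense to it, and its run of 5 tiles and 105 CpGs lay at chr7:143294501-143297000. In the region with 1 further tile, B cell libraries were between 35.8% and 55.7% (median 42.1%) and T cell libraries between 38.7% and 53.5% (median 45.5%). Airn starts in an intron of Igf2r and is antisense to it, with a run of 4 tiles and 102 CpGs at chr17:12741001-12743000. The Airn region was at 43.7% to 62.6% in B cells (median 47.8%) and at 36.8% to 49.9% in T cells (median 44.6%). Its 2 highest libraries, at 62.6% and 61.6%, were both oxBS libraries of B cells, 1 from each sex, and the other 6 B cell libraries lay at or below 49.3%.

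**Figure D1:**
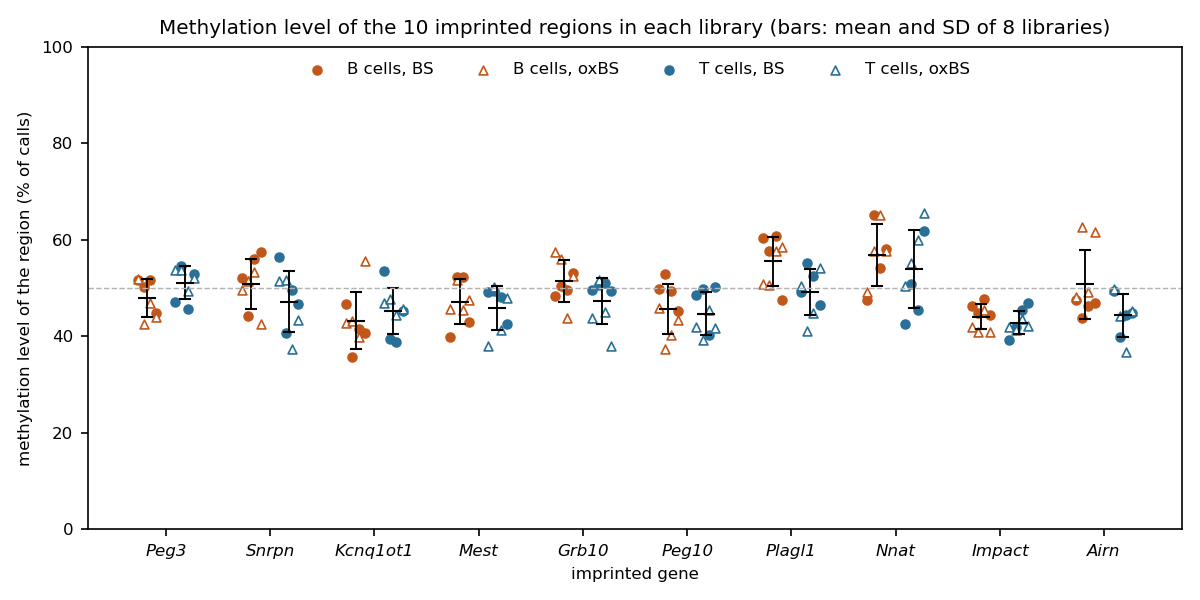
Methylation level (percent of calls methylated) of the 10 imprinted regions in each of the 16 libraries, with B cells in orange, T cells in blue, BS libraries as filled circles and oxBS libraries as open triangles. Bars give the mean and SD of the 8 libraries of a cell type. Libraries of B and T cells overlap at every gene, and the 10 pooled levels lie between 43.3% (Impact) and 55.1% (Nnat). The share of all regions with such an overlap is not given here, so the overlap is a description.

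The intermediate level was a property of single CpGs as well as of tiles. In the 10 runs, between 82.2% (Nnat) and 100% (Snrpn, Kcnq1ot1) of CpGs with at least 50 pooled calls were themselves at 30 to 70%, and no run had a CpG below 20%. Nnat was the exception at the upper end, with 8 of 118 CpGs above 80%, against 0 to 3 in the other runs. The median CpG was at 39.8% in Impact, 43.9% in Grb10 and 52.6% in Nnat. The levels dipped where CpGs were dense. The 27 run tiles with at least 20 CpGs had a median level of 44.3%, and 23 of them were below 50%. The 31 run tiles with fewer CpGs had a median of 50.8%, and 14 were below 50%. Among all tiles at 30 to 70%, the medians were 46.5% with at least 20 CpGs and 55.4% with fewer, so the order was the same in the background. The lowest run tile was at 36.4% in Impact and the highest at 68.0% in Plagl1. Since the limits of 30% and 70% chose the tiles, these levels are a description. The tiles nearest the limits were at 31.3% (Plagl1) and 69.9% (Snrpn) inside them and at 29.3% and 70.1% (both Grb10) outside.

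**Figure D2:**
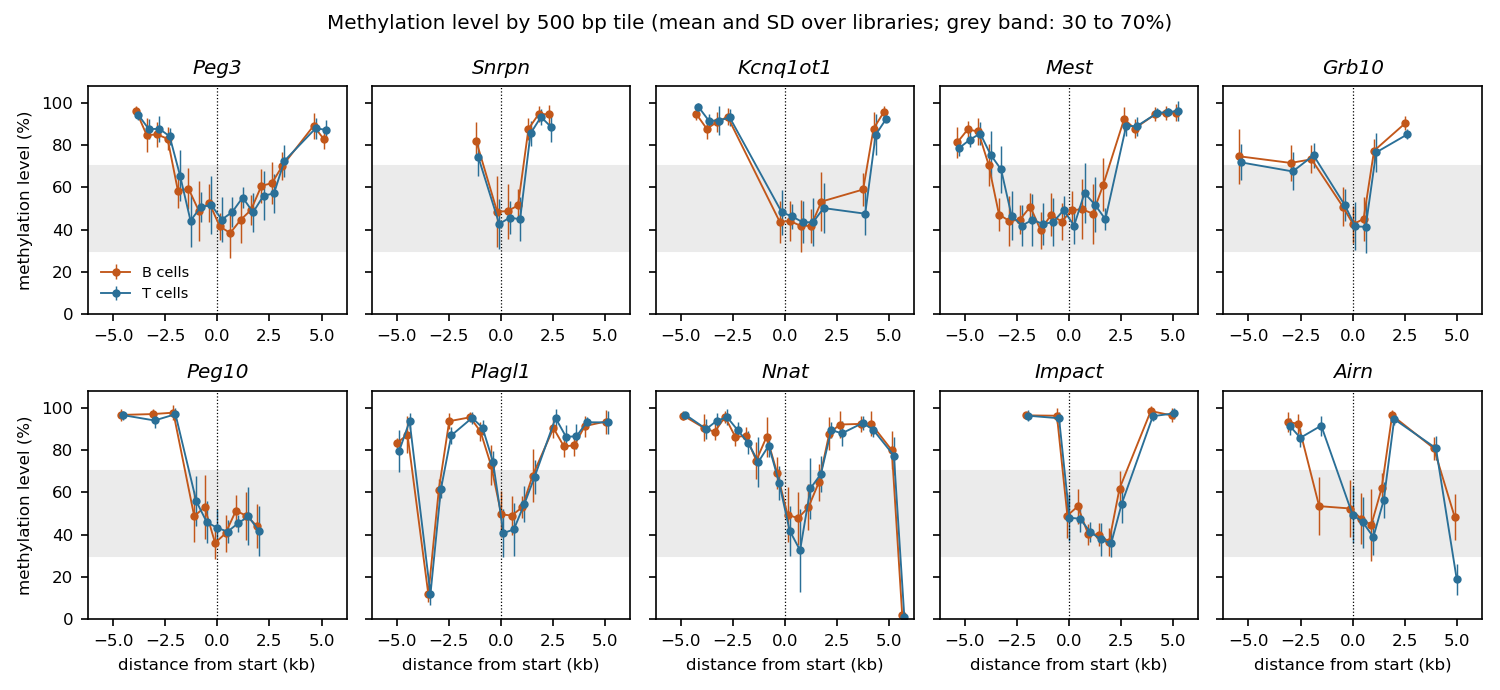
Methylation level of each measured 500 bp tile within 6 kb of an annotated start inside the longest run, by gene, with distance in kb along the direction of the gene. Points and bars give the mean and SD over libraries with at least 20 calls, in B cells (orange) and T cells (blue), and the grey band marks 30 to 70%. The levels sit in the band over the runs and climb on at least 1 side of them.

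The promoter sums mixed several starts, because 7 of the genes had more than 1 window. Of 28 windows of 1 kb on either side of a start, 11 were at 30 to 70%, 15 were above 70% and 2 were below 30%. The 2 low windows were the upstream promoter of Grb10, where 242 CpGs were at 10.9% in B cells (SD 1.85 points) and less than 1 point from that in T cells (SD 0.496), and the upstream window of Impact at 20.7% ± 4.30 and 17.7% ± 4.90. The low Grb10 window joined 2 starts, and a window of 3 starts further downstream was at 49.6% ± 5.30 in B cells and 47.3% ± 6.30 in T cells. Mest had windows at 94.1%, 83.1% and 91.5% beside the window at 47.1%, and its promoter sum was at 67.0%, the highest of the 10. The Grb10 sum, at 38.0%, was the lowest.

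The question of the first comparison was whether the imprinted regions differ between B and T cells. None of the 10 regions did at an adjusted p under 0.05, while 40.3% of all 24999 regions were called. The fitted difference, B minus T, was between -3.16 percentage points at Peg3 and 6.29 at Airn, with 8 of 10 positive. Over all regions the median of B minus T was also positive, at 1.18 points. Its absolute value had a median of 2.78 points, beside 5.97 over all regions, and none of the 10 reached 10 points, beside 35.1% of all regions. Region tiles were chosen by a level pooled over both cell types. A tile high in one cell type and low in the other can therefore enter a region through the difference tested here. This can raise the shares and the median absolute difference over all regions, so the contrast with the 10 regions is a description. The 10 regions also held more tiles, from 5 at Snrpn to 12 at Grb10, beside a median of 2 over all regions. Whether the number of tiles matters to the contrast was not tested. The test was a quasi-binomial logistic model of the calls that also held terms for sex and assay, with Benjamini-Hochberg adjustment over all regions. Standard errors were 0.956 to 3.17 points (median 2.52), beside a median of 3.05 over all regions. The 95% intervals of the 10 together ran from -8.12 to 12.6 points, so differences of a few points were not detectable at most of these genes. At Impact, the interval was the narrowest, from -0.963 to 3.20 points around a difference of 1.12, but with only CpGs at least 150 bp apart counted the difference was 4.40 points (95% interval 0.847 to 7.95, adjusted p = 0.0533 in the quasi-binomial model). It was 0.604 points with tiles at 20 to 80%, -0.0390 with at least 40 calls and -0.748 with tiles of 250 bp. Adjusted p-values ran from 0.0993 (Plagl1) to 0.815 (Peg10), and 1 gene, Plagl1, was under 0.05 before adjustment, beside 46.2% of all regions. B cell calls as a whole were also slightly more methylated, at 79.5% to 81.5% per library beside 78.5% to 79.7% in T cells.

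Plagl1 and Airn were nearest to a call. The Plagl1 region was at 55.5% ± 5.07 (SD, n = 8) in B cells and 49.2% ± 4.84 (SD, n = 8) in T cells. The fitted difference was 5.76 points (95% interval 0.159 to 11.4), with p = 0.0252 in an exact two-sided permutation test of the 16 levels and an adjusted p = 0.0993 in the model. Without the male BS library 4 of B cells, which had the lowest Plagl1 level of that cell type (47.6%), the difference was 7.61 points and the adjusted p = 0.0180 in the quasi-binomial model. With both male BS libraries of B cells left out, the difference was 7.42 points (adjusted p = 0.0430 in the quasi-binomial model). The Airn region averaged 50.7% ± 7.20 over B cell and 44.3% ± 4.38 over T cell libraries, with an exact permutation p = 0.0457 and an adjusted p = 0.110 in the model. In BS libraries alone the Airn difference was 1.46 points and in oxBS libraries alone 11.5, and neither was called. With only CpGs at least 150 bp apart counted in the quasi-binomial model, Plagl1 (5.78 points, adjusted p = 0.0207) and Airn (6.68 points, adjusted p = 0.0477) were called, and 36.3% of the 16335 regions tested that way. In their longest runs alone, the differences were 5.92 points at Plagl1 (exact permutation p = 0.116, adjusted p = 0.293 in the model) and 4.65 points at Airn (exact permutation p = 0.157, adjusted p = 0.267), and none of the 10 runs was called. Under the alternatives run, the longest runs among them, 23.3% to 45.9% of all regions were called.

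Among the promoter sums, none of the 10 was called, beside 10.4% of 51359 promoters, so the count was near the background. Their median absolute difference was 2.66 points, beside 1.46 over all promoters, the opposite order to that of the regions. The largest was Peg3, with 46.8% ± 6.02 in B cells and 52.4% ± 4.44 in T cells, a difference of -5.50 points (exact permutation p = 0.0556, adjusted p = 0.273 in the model).

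**Figure D3:**
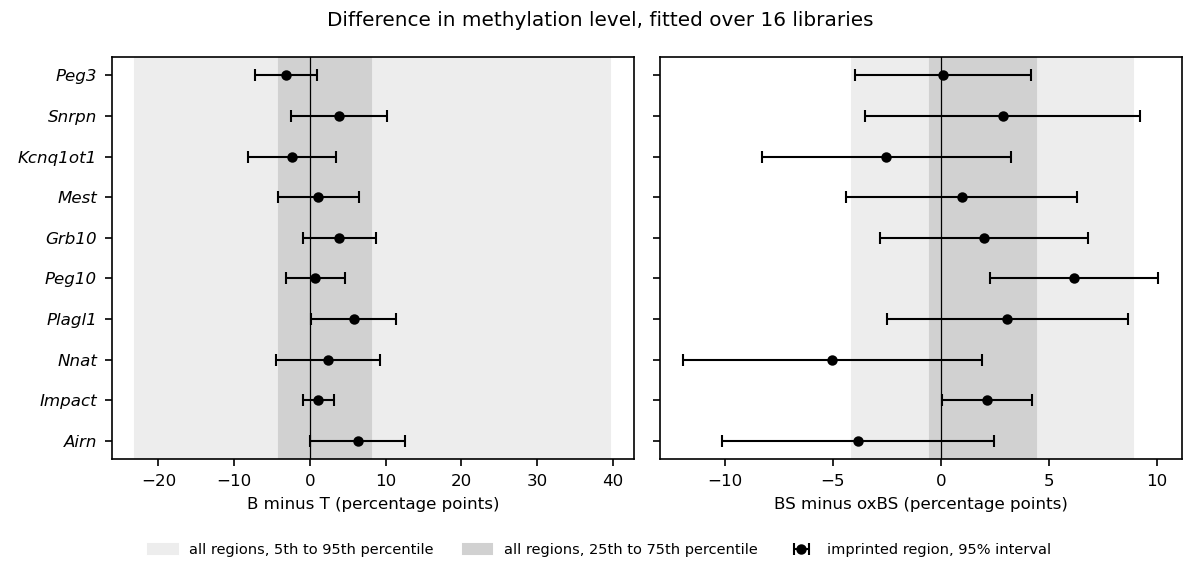
Fitted difference in methylation level in percentage points, B minus T cells (left) and BS minus oxBS libraries (right), for the 10 imprinted regions with 95% intervals. Grey bands give the 5th to 95th and the 25th to 75th percentile over all 24999 regions. Regions were chosen by levels pooled over both cell types, which can widen the bands for B minus T. For B minus T, the 10 points lie between -3.16 and 6.29, inside the band of the 25th to 75th percentile (-4.11 to 8.11).

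Single tiles within the regions were compared between the cell types in the same way. Of 80 region tiles, 10 were called (12.5%), beside 38.4% of all tiles at 30 to 70%. They were 2 of 58 tiles in the longest runs and 8 of the 22 other tiles, the latter near the share of all such tiles. Because the limits apply to the pool of both cell types, a tile can be a region tile through the difference tested here. These counts are therefore a description. Both run tiles belonged to Mest. They were the first tile of its run, lower in B cells (47.2% ± 7.92) than in T cells (68.5% ± 10.9), and the last, higher in B cells (61.3% ± 12.6) than in T cells (45.0% ± 5.12), with 6 and 7 CpGs. The 5 region tiles with the largest difference all lay outside the runs and were higher in B cells, with pooled levels between 33.2% (Airn) and 67.0% (Plagl1).

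The largest difference was in Impact, downstream of its run in a tile with an annotated exon (chr18:12982001-12982500, 4 CpGs). It was at 88.9% ± 7.01 in the 7 B cell libraries with enough calls and at 10.7% ± 5.86 in 6 T cell libraries, 79.1 points apart (95% interval 70.1 to 88.0), while its pooled level was 51.4%.

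Next was a Plagl1 tile just upstream of its first annotated start, outside any annotated gene (chr10:13060001-13060500, 10 CpGs), at 94.0% ± 4.47 in B cells and 39.5% ± 18.1 in T cells. In T cells its libraries ranged from 8.07% to 68.4%. A tile in a Grb10 intron (chr11:11953501-11954000, 9 CpGs) was at 91.0% ± 4.71 in B cells and 42.8% ± 10.5 in T cells, and another (chr11:11935001-11935500, 9 CpGs) at 74.2% ± 7.36 and 48.8% ± 5.55. The Airn tile outside its run, in an intron of both Airn and Igf2r (chr17:12746001-12746500, 5 CpGs), was at 48.3% ± 10.8 in B cells and 18.8% ± 7.28 in T cells. Since the 5 tiles were chosen by this difference, their levels are a description.

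The 120 bases with most CpGs of the Plagl1 tile and the first Grb10 tile are shown with CpGs in capitals, as the DNA of the tiles with the largest differences for which sequence is printed.
Plagl1, chr10:13060040-13060159, plus strand: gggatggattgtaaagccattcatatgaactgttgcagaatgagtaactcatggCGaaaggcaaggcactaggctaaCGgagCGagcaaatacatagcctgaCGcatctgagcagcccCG
Grb10, chr11:11953533-11953652, minus strand: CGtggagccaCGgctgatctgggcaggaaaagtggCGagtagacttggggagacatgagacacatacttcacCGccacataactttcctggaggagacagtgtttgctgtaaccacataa
In the Plagl1 stretch, the 5 CpGs were methylated in 91.1% to 97.7% of pooled B cell calls and in 24.0% to 47.5% of pooled T cell calls, with 43 to 61 calls per CpG. The 4 CpGs of the Grb10 stretch were at 81.4% to 93.1% in B cells and at 5.17% to 28.1% in T cells. Both stretches come from tiles chosen by their difference.

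**Figure D4:**
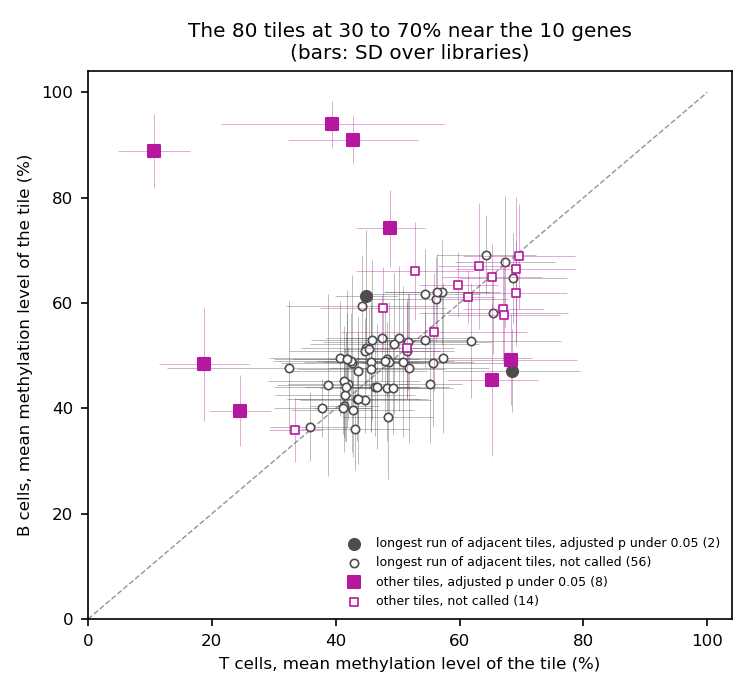
Mean methylation level of the 80 region tiles in B cells against T cells, with SD bars over libraries. Tiles of the longest runs are grey circles, other tiles magenta squares, and filled symbols mark an adjusted p under 0.05. The run tiles gather around the diagonal, and 8 of the 10 filled symbols are tiles outside the runs.

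BS and oxBS libraries were compared to ask whether 5-hydroxymethylcytosine, which only BS reads as methylated, adds to the level. None of the 10 regions was called in the quasi-binomial model (0.0% of all regions were), with adjusted p-values between 0.242 and 0.991. Before adjustment, 2 of 10 were under 0.05, beside 12.5% of all regions. The median of BS minus oxBS was 1.47 points over the 10 and 1.78 over all regions. Peg10 had the largest value, with BS libraries at 48.3% ± 3.86 (SD) and oxBS libraries at 41.9% ± 2.92. The difference was 6.17 points (95% interval 2.27 to 10.1, exact two-sided permutation p = 0.00357 before adjustment), 7.69 points between the means in B cells and 5.19 in T cells. Impact was higher in BS by 2.12 points (95% interval 0.0346 to 4.21). Nnat, Airn and Kcnq1ot1 had the opposite sign, at -5.02, -3.84 and -2.52 points, with intervals that include 0. With only CpGs at least 150 bp apart counted, these were -3.20, -0.679 and -1.20 points, and with tiles at 40 to 60% Nnat was at -9.46 and Impact at 4.25 points, none of them called. At Airn, the B cell means were 46.1% ± 1.65 in BS and 55.4% ± 7.80 in oxBS and the T cell means 44.6% ± 3.90 and 44.0% ± 5.41. The interaction of assay and cell type in the quasi-binomial model was not called at any of the 10 genes (lowest adjusted p = 0.417, at Grb10). It was called at 169 of all 24999 regions, so the count at the 10 genes was near the background. The 95% intervals over the 10 ran from -11.9 to 10.1 points, so a 5-hydroxymethylcytosine share of a few points was not detectable with this spread between libraries.

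Male and female libraries did not differ at an adjusted p under 0.05 in any of the 10 regions. Genome-wide 1.27% of regions were called, 310 of 318 of them on the X chromosome. Nnat had the largest value, with male libraries at 58.5% ± 6.54 and female libraries at 52.3% ± 6.91, and the lowest adjusted p was 0.788, at Impact (44.6% ± 2.30 in males and 42.3% ± 2.25 in females).

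Libraries of one cell type, sex and assay spread more at the imprinted regions than counting error of single calls gives. The dispersion, which is 1 when libraries differ by binomial counting error alone, had a median of 10.5 over the 10 regions, between 2.60 at Impact and 14.8 at Mest. Its median over all regions was 1.62, and 9 of the 10 were above the 95th percentile of all regions (4.59). The regions also had more calls, with medians of 454.5 to 1782 per library beside 111 over all regions, and more CpGs, with a median of 3.67 per 100 bp beside 1.40. Neighbouring CpGs can be read on 1 DNA fragment, so their calls need not be independent. When only CpGs at least 150 bp apart were counted, the dispersion fell to a median of 1.20 over the 10 (0.572 at Plagl1 to 1.58 at Peg3) and 1.07 over all regions, and none of the 10 was above the 95th percentile of all regions (2.23). That also left fewer calls, with medians of 83 to 242.5 per library, and fewer calls lower the dispersion for any given spread. The SD over the 16 libraries did not fall in step, from 5.79 to 3.91 points at Plagl1 and from 3.86 to 3.72 at Peg3, and it was higher at Nnat (8.13, from 7.24), Peg10 (4.73, from 4.69) and Impact (4.0, from 2.50), which then no longer had the lowest. Fewer calls also raise the part of an SD that counting error gives. The SDs with CpGs at least 150 bp apart therefore do not show how much spread beyond counting error remained. With all CpGs, the SD over the 16 libraries was between 2.50 points at Impact and 7.24 at Nnat, and the highest and lowest library were 8.42 to 25.8 points apart. No library was high or low throughout. The mean over the 10 regions was 48.1% to 50.9% in B cell libraries and 44.8% to 48.7% in T cell libraries, and no library was the highest of its cell type at more than 3 genes or the lowest at more than 3.

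**Figure D5:**
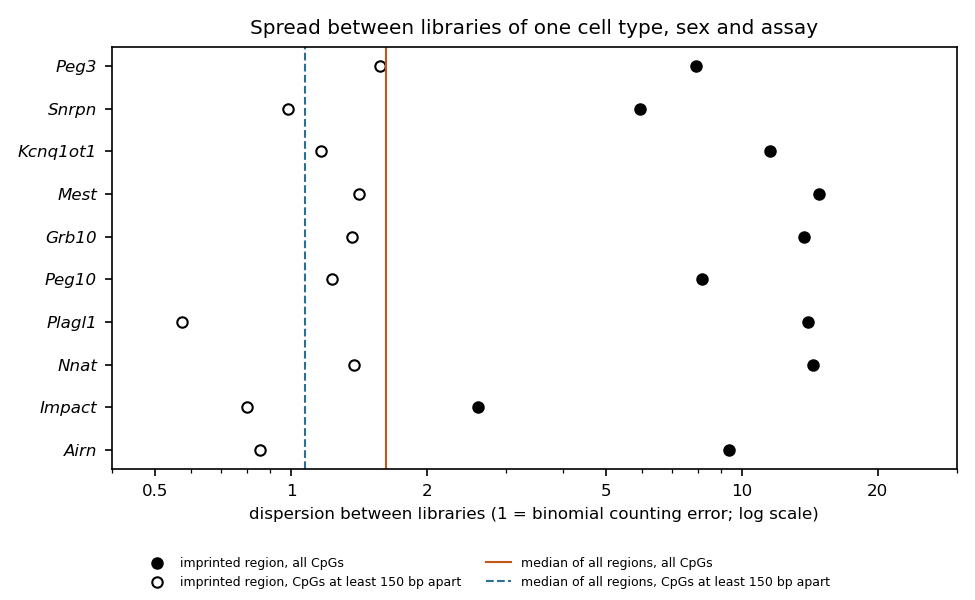
Dispersion of the calls between libraries after cell type, sex and assay were fitted, on a log axis where 1 is binomial counting error. Filled circles use all CpGs of the 10 imprinted regions and open circles only CpGs at least 150 bp apart. Lines give the medians over all regions. The filled circles lie between 2.60 and 14.8 and the open ones between 0.572 and 1.58.

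Genes of the same imprinted domains were read from a list of 27 neighbours. Their promoters were called in 2 of 27 cases, near the 10.4% of all promoters, with Igf2r higher in B cells (61.7% beside 53.1%) and Slc22a2 higher in T cells (90.5% beside 93.2%). Igf2r, a receptor that clears IGF2, lies over Airn and shares tiles with it. Its region was at 44.6% in B cells and 37.1% in T cells (7.41 points, adjusted p = 0.00314 in the quasi-binomial model), and 5 of the 24 neighbours with a region were called, beside 40.3% of all regions. Ddc beside Grb10 (60.6% and 51.6%) and Copg2 (45.9% and 39.5%, a single tile) were also higher in B cells. Pon3 (43.6% and 56.2%, a single tile) and Peg12 (46.9% and 51.4%) were higher in T cells. The genes that share a start region with a member, Usp29, Snurf, Sgce and Blcap, were not called. Their regions reuse tiles of the members, and that of Usp29 is the Peg3 region, so the neighbour count partly repeats the members. The 40.3% carries the limit given for the first comparison. None of the 8 other maternally methylated genes was called in its promoter (10.4% of all promoters were), and none of the 7 with a region in its region (40.3% of all regions were). These regions lay between 47.0% (Gnas) and 57.7% (Nap1l5) in B cells and between 47.1% and 61.9% (the same genes) in T cells, with Zrsr1, Peg13, Nespas and Inpp5f in between. Slc38a4 was higher in B cells (54.8% and 52.9%) and the other 6 were lower. Mcts2 had no region, and its promoter was at 95.5% and 95.1%. Of 6 genes that protect imprints, no promoter was called (10.4% of all were), and 2 regions were, near the share of all regions (40.3%): Dnmt1 (69.7% in B cells, 25.1% in T cells) and Uhrf1 (40.5% and 72.7%). At 3 paternally methylated loci, the regions of H19 (53.1% and 50.1%), Meg3 (54.1% and 51.3%) and Rasgrf1 (55.6% and 50.4%) were not called.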

How the data were processed

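WGBS libraries were made from B and T cells with BS and oxBS conversion. Per the labels and the study's methods, the authors trimmed reads with Trim Galore 0.6.0, mapped them to mm10 with Bismark 0.20.0 and kept alignments with a MAPQ of at least 10. SAMtools 1.3.1 is also named, and the study did not separate BS from oxBS libraries, taking hydroxymethylation to be low. The deposited values were raw counts: unmethylated and methylated calls per CpG and library, both strands added, with no normalization.

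Calls at CpGs of GRCm38.p6 on the chromosomes were used. Calls at other positions (44941 to 61858 per library), contigs and the mitochondrial genome were dropped. Of the last 2 kinds, 14 libraries listed 16429 to 17017 positions, and the male BS pair from B cells at most 243. Sums over promoters, tiles and regions were compared with a quasi-binomial logistic model (dispersion of at least 1, 12 residual degrees of freedom) with cell type, sex and assay as terms, in libraries with at least 20 calls. P-values were adjusted by the Benjamini-Hochberg method over all features, with a threshold of 0.05. Genes with the same tiles were counted once. Single values were compared with exact two-sided permutation tests, whose smallest p is 0.000155. The fit was tested on simulated data at the real depths. Intervals cover the spread between the libraries used. The text names the 10 genes, the 5 region tiles with the largest difference between B and T cells and the genes of the lists. Run tiles called and printed sequences were added after their values were seen. One B cell marker is not reported here. Members and lists were chosen with earlier results of these data known. Alternatives changed the tile limits, size and grid, the call minimum, the TSS window, the libraries, the test and the CpGs counted. All fits ran in NumPy 2.4.6 and SciPy 1.17.1, under Python 3.11.15 with tables in pandas 2.3.3. Sequences were read from the NCBI RefSeq copy of GRCm38.p6.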

Additional observations from a re-analysis of the deposited data

How the results depend on the processing

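No call of a promoter, of BS against oxBS or of male against female was made at the 10 genes under the alternatives run, which were 28, 26 and 20. The shares of all features called under them were 1.234% to 11.97% for promoters and 0% for BS against oxBS. For male against female the share was 0% to 1.2%. These counts of 0 were therefore near the background and say little about the 10 genes. With B compared with T cells, the count of called regions was 0 under the tile limits, tile sizes, grid, call minimums, assays alone, exact tests, autosomes, dispersion, size limit and longest runs tried. It was 1 without both male BS libraries of B cells, 2 with CpGs at least 150 bp apart, and 0 to 1 with each library left out, the 1 being Plagl1 without the male BS library 4 of B cells. The background rate stayed between 23.3% and 45.9%. Called region tiles (10 of 80) were 5 of 57 with tiles at 40 to 60%, 15 of 100 with tiles at 20 to 80%, 11 of 85 with at least 10 calls, 6 of 67 with at least 40, 7 in BS and 6 in oxBS libraries alone, 5 with a difference of at least 20 points, and 10 to 13 with each library left out. The share of all such tiles called ran from 21.46% to 41.25% under the tile alternatives, so counts at different settings have different backgrounds. Without each library, promoter, BS against oxBS and male against female counts ran from 0 to 0. The median dispersion of 10.5 was 8.47 to 11.4 with each library left out and 1.20 with CpGs at least 150 bp apart, where fewer calls are counted. Of 790 single values under alternatives, 33 changed sign, all without a call before or after, and 4 became called (Plagl1 3 times, Airn 1 time).

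No paired analysis was possible because each library has a number of its own in the labels, and no label ties a BS library to an oxBS library or an animal. At 5.64 to 7.80 calls per CpG, single CpGs and tiles with few CpGs are less precise than regions. The files hold counts per CpG with no fragment information, so how far calls in CpG-dense runs come from shared fragments was not tested. The levels are sums over both parental copies. Whether duplicate reads were removed is not given in the sources used here.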
